A study of Homo sapiens with 4 samples.

Results

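Glycolysis and pyruvate handling were described through a list of 33 genes for glucose transport, the enzymes below hexokinase, lactate formation and the first mitochondrial steps of pyruvate. A gene was taken up when a probe set of the array was annotated with that symbol and no other, and of several such probe sets the one with the highest signal, averaged over 4 arrays, stood for the gene. By this rule 31 of the 33 genes had a value, among 19775 genes in all. The lactate transporter genes SLC16A1 and SLC16A3 had no such probe set and were not analysed here. The arrays held total RNA of 4 cell cultures, 1 array each, and read each gene with 1 or more probe sets, groups of short oligonucleotides whose brightness MAS5 sums up as a signal. Jeko-1/R is a rituximab-resistant subline of Jeko-1, a mantle cell lymphoma line, and Raji/R is a rituximab-resistant subline of Raji, a line from a Burkitt lymphoma. The therapeutic antibody rituximab binds CD20 on B cells. The sublines had been treated with the antibody and the parental cultures had not, and the study set each subline against its parent to look for expression that accompanies resistance. The labels give no dose, no length of treatment and no statement on whether a subline is 1 clone.

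With 1 array per group no p-value exists within a line, and the number of arrays limits the precision. A signal floor of 77.5, the pooled median of all values, was applied, and a ratio with 1 side below it is written "at least". The spread of log2 ratios between probe sets of 1 gene (SD 0.25 for Jeko-1/R over Jeko-1, SD 0.49 for Raji/R over Raji) gives a scale, although it holds no spread between cultures. B-cell and mantle cell markers fitted the labels. All 5 measured B-cell markers were above the floor on every array. The mantle cell lymphoma markers CCND1 and SOX11 were above it on 2 of 2 Jeko-1 arrays and on 0 Raji arrays. All 4 germinal centre and Burkitt lymphoma markers were above it on every array and did not separate the lines as a list. BCL6 and CD38 were higher on the Raji arrays and MYC on the Jeko-1 arrays. MME had 187 in Jeko-1/R, 201 in Jeko-1, 113 in Raji/R and 223 in Raji. Summed signals of the T-cell, NK-cell, myeloid, erythroid and stromal marker lists lay between 103 and 2172 on the resistant arrays and between 69.4 and 2122 on the parental arrays. The NK-cell sum was 2093 in Raji/R and 1062 in Raji, mostly from NKG7, and the myeloid sum was 866 in Raji/R and 537 in Raji. The part of such transcripts in the results below was not tested. In bulk RNA, fewer cells expressing a gene and less of its RNA per cell cannot be told apart. Over all probe sets the log2 signal had a median of 6.12 for Jeko-1/R, 6.11 for Jeko-1, 6.59 for Raji/R and 6.18 for Raji.

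Glycolysis turns glucose into pyruvate in the cytosol. Pyruvate is then reduced to lactate, or carried into mitochondria and turned into acetyl-CoA by pyruvate dehydrogenase, which PDK kinases switch off. Most steps have several isoenzymes encoded by separate genes. Many of these genes are textbook targets of hypoxia-inducible factor and of MYC, and dividing lymphoma cells typically use much glucose.

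Most genes of the glycolytic trunk had lower signals in Jeko-1/R than in Jeko-1 and higher signals in Raji/R than in Raji, while the side branch and most mitochondrial genes did not share this pattern. In the Jeko-1 pair 25 of 31 genes had a log2 ratio below 0, against 49.8% of all 11588 genes described in that pair, and 6 were above 0, against 50.2%. The median of the 31 was -0.30, against 0.00 over all genes. At least 2-fold lower were 3 of them, PFKFB4, SLC2A3 and ALDOC (0.595% of all genes were), and 0 were 2-fold higher (0.38% of all genes). In the Raji pair 22 of 30 genes were above 0, against 56.1% of all 14642 genes, and 8 were below 0, against 43.9%, with a median of 0.43 against 0.08. Here 3, SLC2A3, ALDOC and PFKL, were at least 2-fold higher (7.01% of all genes) and 0 were 2-fold lower (2.64%). ENO2 was below the floor on both Raji arrays and has no ratio there. Of 30 genes measured in both pairs, 21 were below 0 in Jeko-1/R and above 0 in Raji/R, against 25.3% of 10655 genes. The opposite combination held for 5 of 30, against 24.9%. Probe sets named x_at and s_at may bind other transcripts too, and each pair kept 16 members without them. Then 11 of 16 were below 0 in Jeko-1/R, with a median of -0.13 against 0.01 over all genes. In Raji/R 9 of 16 were above 0, a share close to the 56.1% of all genes, with a median of 0.14 against 0.08. The level of most of these genes was also several times higher in the Raji lines than in the Jeko-1 lines.

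**Figure D1:**
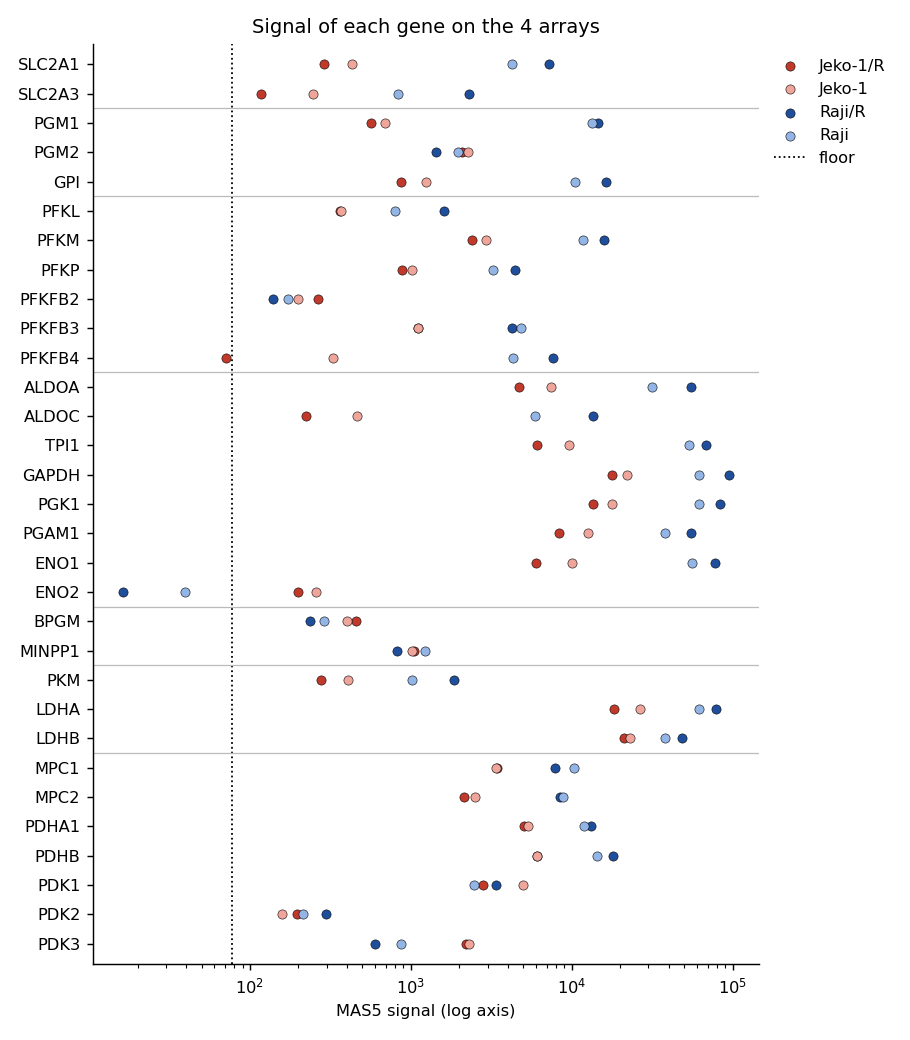
MAS5 signal (horizontal log axis) of 31 genes, ordered by pathway step, in Jeko-1/R, Jeko-1, Raji/R and Raji, 1 point per array; the dotted line is the floor of 77.5. The blue Raji points lie to the right of the red Jeko-1 points for most genes, and ENO2, PDK3, BPGM, PFKFB2 and PGM2 lie the other way round, PDK3 in the probe set plotted and in 1 of its 4 others.

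Promoters are shown for the members that passed 2-fold in a pair and have an entry in the RefSeq promoter table (ALDOC, PFKFB4 and PFKL), for LDHA, and for MINPP1. LDHA is an abundant enzyme, and MINPP1 a gene of the side branch. They do not stand for their groups, since the windows of SLC2A1, PKM, PGAM1 and LDHB hold 0 of the motifs below and that of PGM2 holds 3 ACGTG and 1 GCGTG. Each line gives the 250 bases before a RefSeq transcription start of GRCh38.p14, 5′ to 3′ on the gene's strand. Capitals mark ACGTG and GCGTG, the core letters that hypoxia-inducible factors bind, on either strand. Where ACGTG lies within CACGTG, the E-box bound by MYC and related factors, the same letters read on both strands.
ALDOC (chr17:28576896-28577145, minus strand): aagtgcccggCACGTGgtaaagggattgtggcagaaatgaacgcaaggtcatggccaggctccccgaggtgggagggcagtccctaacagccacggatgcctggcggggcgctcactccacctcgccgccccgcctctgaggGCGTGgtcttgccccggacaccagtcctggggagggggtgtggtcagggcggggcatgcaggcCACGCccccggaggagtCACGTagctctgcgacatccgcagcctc
PFKFB4 (chr3:48556804-48557053, minus strand): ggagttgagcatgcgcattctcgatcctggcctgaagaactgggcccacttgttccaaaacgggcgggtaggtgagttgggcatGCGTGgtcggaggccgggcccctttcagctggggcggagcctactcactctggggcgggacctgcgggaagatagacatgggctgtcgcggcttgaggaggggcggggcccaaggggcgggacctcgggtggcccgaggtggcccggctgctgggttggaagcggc
PFKL (chr21:44299803-44300052, plus strand): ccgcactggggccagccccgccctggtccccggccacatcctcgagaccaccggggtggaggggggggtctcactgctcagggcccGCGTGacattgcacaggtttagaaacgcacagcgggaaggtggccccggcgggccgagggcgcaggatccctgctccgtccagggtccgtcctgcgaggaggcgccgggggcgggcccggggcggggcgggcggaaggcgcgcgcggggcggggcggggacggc
LDHA (chr11:18394313-18394562, plus strand): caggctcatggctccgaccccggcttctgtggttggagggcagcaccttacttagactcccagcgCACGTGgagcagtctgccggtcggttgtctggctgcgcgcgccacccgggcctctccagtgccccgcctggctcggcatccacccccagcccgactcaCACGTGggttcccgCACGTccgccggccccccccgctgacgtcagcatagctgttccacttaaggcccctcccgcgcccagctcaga
MINPP1 (chr10:87504643-87504892, plus strand): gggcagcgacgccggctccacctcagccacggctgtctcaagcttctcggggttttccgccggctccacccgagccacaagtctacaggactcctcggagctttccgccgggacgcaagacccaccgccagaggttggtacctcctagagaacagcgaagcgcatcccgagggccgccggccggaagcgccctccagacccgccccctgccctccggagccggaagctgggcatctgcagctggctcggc
ALDOC holds 4 runs in capitals and LDHA 3, of which 1 and 2 are CACGTG. PFKFB4 and PFKL hold 1 GCGTG each, 166 and 164 bases before the start. The MINPP1 window holds 0. Over all 35116 windows of the table, 18.5% hold ACGTG, 32.2% GCGTG and 6.34% CACGTG. Of 51 windows belonging to 29 members, 39.2% hold ACGTG, 31.4% GCGTG and 15.7% CACGTG. LDHA and MINPP1 each have another window in the table, and of a gene's windows the one with most ACGTG was shown. The other LDHA window holds 0 ACGTG and 1 GCGTG, and the other MINPP1 window holds 0 of both. These matches describe letters and not binding.

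Glucose enters through transporters, and both measured ones behaved alike. SLC2A1 (GLUT1) and SLC2A3 (GLUT3), the facilitative glucose transporters of most dividing cells and of neurons and blood cells, had ratios of the same sign within each line. SLC2A3 had a signal of 117 in Jeko-1/R and 247 in Jeko-1, a log2 ratio of -1.08, and of 2308 in Raji/R and 837 in Raji, a log2 ratio of 1.46. Its other probe sets gave -0.86 and, with Jeko-1/R below the floor, -0.76 or lower for Jeko-1/R. For Raji/R they gave 0.67 and 0.68, so the direction held and the size in Raji/R did not. After quantile normalization its Jeko-1/R ratio was -0.94, short of 2-fold. SLC2A1 stood at 287 in Jeko-1/R and 429 in Jeko-1 (-0.58), and at 7192 in Raji/R and 4226 in Raji (0.77). Of both transporters the Raji arrays were all above the Jeko-1 arrays.

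At the entry of hexose phosphates 3 genes were read. GPI, which turns glucose phosphate into fructose phosphate, had signals of 870 in Jeko-1/R and 1238 in Jeko-1 (log2 ratio -0.51), and of 16354 in Raji/R and 10532 in Raji (0.63). PGM1, the main enzyme linking glycogen to glycolysis, had 569 in Jeko-1/R and 689 in Jeko-1 (-0.28), and 14654 in Raji/R and 13417 in Raji (0.13). Its paralog PGM2, which acts mainly on pentose phosphates, had 2067 in Jeko-1/R and 2272 in Jeko-1 (-0.14), and 1435 in Raji/R and 1970 in Raji (-0.46). PGM1 thus set the lines far apart, and PGM2 did not.

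Phosphofructokinase is the committed step of glycolysis and is built from the liver, muscle and platelet subunits PFKL, PFKM and PFKP. PFKM had 2397 in Jeko-1/R and 2948 in Jeko-1 (-0.30), and 15817 in Raji/R and 11679 in Raji (0.44). PFKP was similar, with 887 in Jeko-1/R and 1016 in Jeko-1 (-0.20), and 4420 in Raji/R and 3226 in Raji (0.45). PFKL hardly differed in the Jeko-1 pair, at 362 in Jeko-1/R and 369 in Jeko-1 (-0.03). In the Raji pair it had 1603 in Raji/R and 793 in Raji (1.02), but only 0.26 from its other probe set.

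The PFKFB enzymes make and remove the sugar bisphosphate that activates phosphofructokinase, and their genes parted. PFKFB4 had 71.4 in Jeko-1/R, below the floor, and 326 in Jeko-1, at least 4.21-fold lower. This was the gene ranked 3 from the lowest among all 11588 genes of the pair. It had 7645 in Raji/R and 4339 in Raji (0.82), and its other probe set, at 215 in Raji/R and below the floor in Raji, gave at least 1.47. PFKFB3, an isoform common in proliferating cells, stayed close to 0 in both pairs (-0.03 in Jeko-1/R after lowess adjustment), with 1116 in Jeko-1/R and 1111 in Jeko-1 (0.01), and 4241 in Raji/R and 4808 in Raji (-0.18). PFKFB2 went the other way, with 266 in Jeko-1/R and 199 in Jeko-1 (0.42), and 139 in Raji/R and 172 in Raji (-0.30). Other PFKFB2 probe sets measured in the Jeko-1 pair gave at least 0.04 for Jeko-1/R. They had 79.4 and 79.6 there, just above the floor, and Jeko-1 below it (10.2 and 45.0). For Raji/R 1 gave 0.35, 1 gave at least 0.57 with Raji below the floor, and 1 gave -0.13 or lower with Raji/R below it. The direction of PFKFB2 in Raji/R thus rests on the choice of probe set.

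The stretch from aldolase to enolase was uniform in sign. All 8 of its genes were below 0 in Jeko-1/R, and all 7 measured ones were above 0 in Raji/R. ALDOC, the brain-type aldolase, had 224 in Jeko-1/R and 460 in Jeko-1 (-1.04), and 13567 in Raji/R and 5927 in Raji (1.19). ALDOA, the muscle-type aldolase of most tissues, had 4719 in Jeko-1/R and 7464 in Jeko-1 (-0.66), and 55364 in Raji/R and 31737 in Raji (0.80). The pair of aldolases thus had ratios of like sign, those of ALDOC farther from 0 than those of ALDOA in both pairs.

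ENO1, the common enolase, had 5959 in Jeko-1/R and 10046 in Jeko-1 (-0.75), and 77355 in Raji/R and 56210 in Raji (0.46). TPI1, triose phosphate isomerase, had 6097 in Jeko-1/R and 9630 in Jeko-1 (-0.66), and 68586 in Raji/R and 53255 in Raji (0.36). PGAM1, phosphoglycerate mutase, had 8326 in Jeko-1/R and 12568 in Jeko-1 (-0.59), and 55287 in Raji/R and 37771 in Raji (0.55). These 3 abundant transcripts showed the same pattern at smaller size than ALDOC. PGK1, the first enzyme of the pathway to make ATP, had 13500 in Jeko-1/R and 17690 in Jeko-1 (-0.39), and 83558 in Raji/R and 62313 in Raji (0.42). GAPDH, which is often used to scale expression data, had 17934 in Jeko-1/R and 22208 in Jeko-1 (-0.31), and 94533 in Raji/R and 61990 in Raji (0.61). All 3 GAPDH probe sets gave -0.32 or -0.31 in the Jeko-1 pair and between 0.61 and 0.68 in the Raji pair. ENO2, the neuronal enolase, was measured in the Jeko-1 lines, with 198 in Jeko-1/R and 257 in Jeko-1 (-0.38), and was below the floor in Raji/R (16.3) and Raji (39.3). After quantile normalization the Raji/R ratios of TPI1 and PGK1 were -0.02 each, that of ENO1 was 0.04 and that of GAPDH was 0.11.

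In the side branch, BPGM makes the bisphosphoglycerate that tunes haemoglobin in red cells, and MINPP1 is an inositol phosphate phosphatase that can also act on it. BPGM had 458 in Jeko-1/R and 403 in Jeko-1 (0.19), and 236 in Raji/R and 289 in Raji (-0.30). MINPP1 had 1041 in Jeko-1/R and 1023 in Jeko-1 (0.03), and 817 in Raji/R and 1226 in Raji (-0.58). Neither shared the signs of the trunk in either pair, although the MINPP1 ratio in Jeko-1/R was -0.01 after lowess adjustment.

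The last cytosolic steps form pyruvate and lactate. PKM, the pyruvate kinase of most tissues, had 277 in Jeko-1/R and 405 in Jeko-1 (-0.55), and 1850 in Raji/R and 1019 in Raji (0.86), with -0.51 and 1.24 from its other probe set. LDHA, the lactate dehydrogenase subunit that favours lactate formation, had 18441 in Jeko-1/R and 26543 in Jeko-1 (-0.53), and 78619 in Raji/R and 61497 in Raji (0.35, but -0.09 after quantile normalization). LDHB, the subunit that favours pyruvate, had 21040 in Jeko-1/R and 22896 in Jeko-1 (-0.12), and 48798 in Raji/R and 38090 in Raji (0.36). The balance of LDHA over LDHB was therefore -0.40 on the log2 scale in Jeko-1/R relative to Jeko-1, and -0.003 in Raji/R relative to Raji. In Raji/R this balance depended on processing and probe set. LDHB stood at 0.06 there after quantile normalization, against -0.09 for LDHA, and its other probe set gave 0.24 as deposited.

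At the mitochondrial entry, MPC1 and MPC2 form the pyruvate carrier of the inner membrane, and PDHA1 and PDHB form the first component of pyruvate dehydrogenase. MPC1 had 3448 in Jeko-1/R and 3366 in Jeko-1, and 7827 in Raji/R and 10270 in Raji. MPC2 had 2138 in Jeko-1/R and 2490 in Jeko-1, and 8488 in Raji/R and 8779 in Raji. Of all 4 genes the Raji arrays were above the Jeko-1 arrays. PDHA1 had 5052 in Jeko-1/R and 5343 in Jeko-1, and 13267 in Raji/R and 11862 in Raji. PDHB had 6063 in Jeko-1/R and 6111 in Jeko-1, and 18185 in Raji/R and 14402 in Raji. Their log2 ratios lay between -0.22 (MPC2) and 0.03 (MPC1) in Jeko-1/R and between -0.39 (MPC1) and 0.34 (PDHB) in Raji/R. None of the 4 reached 2-fold, and the ratio of PDHB in Jeko-1/R (-0.01) was 0.02 after lowess adjustment. The PDK genes encode kinases that inhibit the enzyme, and they parted too. PDK1 had 2799 in Jeko-1/R and 4969 in Jeko-1 (-0.83), and 3361 in Raji/R and 2473 in Raji (0.44). Another PDK1 probe set had 143 in Jeko-1/R and 285 in Jeko-1, and 786 in Raji/R and 555 in Raji (0.50). The dimmest gave -0.23 for Jeko-1/R and, with Raji/R below the floor, -0.40 or lower for Raji/R. PDK1 thus had the signs of the trunk in 2 of its 3 probe sets.

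PDK3 had 2193 in Jeko-1/R and 2291 in Jeko-1 (-0.06), and 596 in Raji/R and 866 in Raji (-0.54), but 3 of its 4 other probe sets pointed up in Raji/R (0.46, 1.03 and 1.17) and its direction there is uncertain. PDK2 had 196 in Jeko-1/R and 158 in Jeko-1 (0.31), and 297 in Raji/R and 215 in Raji (0.47). It was the 1 member above 0 in both pairs. Over all members, 27 of 33 other probe sets for the Jeko-1 pair and 27 of 35 for the Raji pair had the sign of the probe set used.

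**Figure D2:**
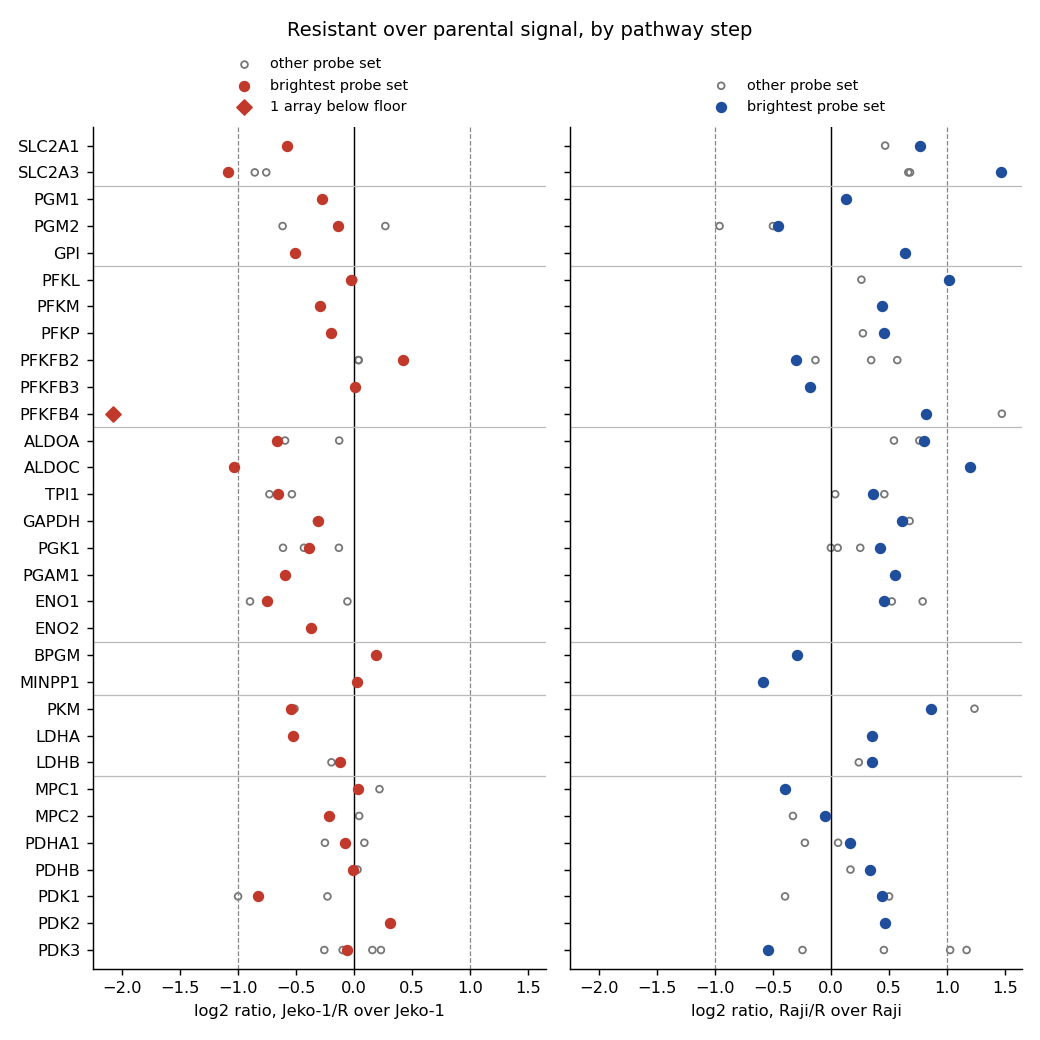
Log2 ratio of resistant over parental signal (horizontal axes) for each gene in the Jeko-1 pair (left) and the Raji pair (right), ordered by pathway step; filled points are the probe set used, open circles other probe sets of the gene, the diamond is PFKFB4 with Jeko-1/R below the floor, and dashed lines mark 2-fold; ENO2 has no Raji point. Filled points from ALDOA to ENO1 lie left of 0 in Jeko-1/R and right of 0 in Raji/R.

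The 2 pairs share no array, so their ratios can be set against each other. Across 30 genes Pearson's r was -0.63 and Spearman's rho -0.68, and across all 10655 genes r was -0.03. The 26 genes that did not pass 2-fold in either pair gave r = -0.66. Genes are not independent replicates, and members share signal level and, in part, probe design, so this is a description.

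**Figure D3:**
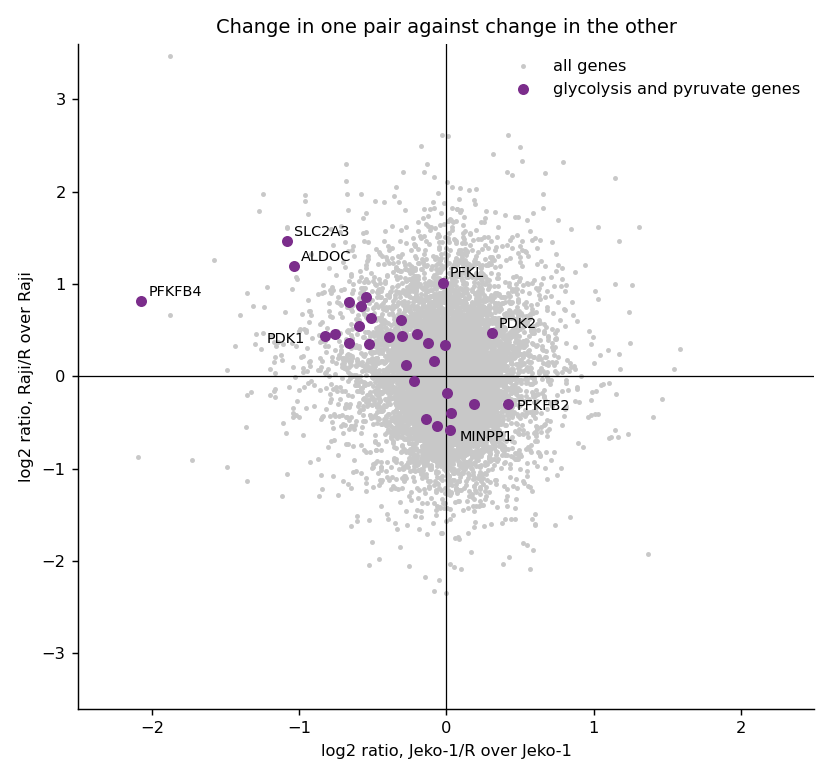
Log2 ratio of Raji/R over Raji (vertical axis) against that of Jeko-1/R over Jeko-1 (horizontal axis); grey points are all 10655 genes measured in both pairs and purple points are 30 glycolysis and pyruvate genes. Most purple points lie above 0 on the vertical and below 0 on the horizontal axis, 21 of 30, with PFKFB4, SLC2A3 and ALDOC farthest out.

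Ratios in the Raji pair depended on signal level over all genes, and many members are abundant. Among 428 genes with a mean signal above 16384 the median log2 ratio was 0.24, and all 8 members in that band were above it, with values from 0.35 to 0.80. Among 3005 genes with a mean signal between 1024 and 4096 the median was -0.08, and 5 of 6 members were above it. Between 4096 and 16384 it was -0.01, with 8 of 11 members above it. Between 256 and 1024 it was -0.02, and 0 of 3 members were above it (member median -0.54). In the dimmest band, up to 256, it was 0.28, with 1 of 2 members above it. A lowess curve of ratio on signal level was subtracted to set each gene against all others of its level. After it, SLC2A3 stood at 1.54, ALDOC at 1.19, PFKL at 1.08, PKM at 0.93, PFKFB4 at 0.85 and SLC2A1 at 0.80 in Raji/R. The abundant LDHA stood at 0.04, TPI1 at 0.07, PGK1 at 0.10 and ENO1 at 0.15. ALDOA (0.56), GPI (0.58), PGAM1 (0.30) and GAPDH (0.27) lay in between. The excess over genes of like level was thus wider for the transporters, PFKL, PFKFB4, ALDOC and PKM than for LDHA, TPI1, PGK1 and ENO1. The median of the 30 members was 0.20 after lowess and 0.12 after quantile normalization, while that of all genes, 0.08 as deposited, was 0.04 and 0.003. The 2-fold calls over all genes, 1026 higher and 386 lower, became 350 and 806 after lowess and 847 and 735 after quantile normalization. In the Jeko-1 pair the member median was -0.30 after lowess and -0.33 after quantile normalization.

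**Figure D4:**
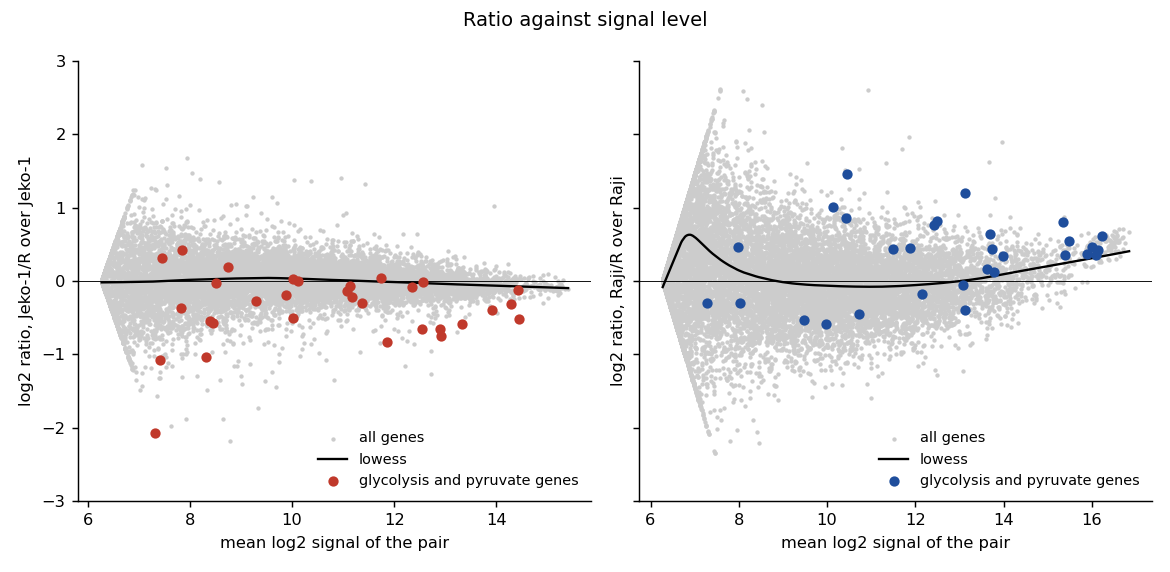
Log2 ratio of resistant over parental signal (vertical axes) against the mean log2 signal of the pair (horizontal axes) for the Jeko-1 pair (left) and the Raji pair (right). Grey points are all genes, the black line is the lowess curve and coloured points are glycolysis and pyruvate genes; the curve is nearly flat on the left, and on the right it is above 0 at low and at high signals, where several coloured points sit close to it.

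The lines themselves were compared with limma, which fitted cell line and resistance as terms to all 15575 genes. Each line gave 2 arrays, a subline and its parent. With both terms fitted, the spread left is how far the change from parent to subline differs between the lines. It was shrunk towards that of all genes. The p-values rest on this and not on the spread between cultures. Of 31 genes, 22 were lower in the Jeko-1 lines by at least 2-fold with an adjusted p under 0.05, where 23.8% of all genes were. Another 2 were higher in the Jeko-1 lines, where 20.0% of all genes were. By sign alone, 24 of 31 were lower in the Jeko-1 lines, against 64.8% of all genes, and 7 were higher, against 35.2%. The median line difference of the members was -1.94 on the log2 scale, against -0.28 over all genes. The count of 22 became 10 of 17 without x_at and s_at probe sets and 0 without the floor, where limma called 0 of 19775 genes.

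The widest gaps were those of PFKFB4, ALDOC and PGM1. PFKFB4 had a log2 difference of -5.18 ± 0.60 (SE) between Jeko-1 and Raji lines (limma, adjusted p = 0.000435), with the Jeko-1/R value raised to the floor. Between the parental arrays, both above the floor, it was 13.3-fold lower in Jeko-1 than in Raji. ALDOC followed at -4.80 ± 0.49 (limma, adjusted p = 0.000255) and PGM1 at -4.48 ± 0.26 (limma, adjusted p = 3.87e-05). SLC2A1 stood at -3.97 ± 0.35 and GPI at -3.66 ± 0.33, 15.7-fold and 12.6-fold lower in the Jeko-1 lines. ENO1 (-3.09 ± 0.34), SLC2A3 (-3.03 ± 0.54), TPI1 (-2.98 ± 0.31) and ALDOA (-2.82 ± 0.37) came next. The order among these is not settled where their errors overlap. The 3 phosphofructokinase subunits lay between -2.35 (PFKM) and -1.63 (PFKL), and PFKFB3 stood at -2.02 ± 0.25. GAPDH (-1.94 ± 0.30), PGK1 (-2.22 ± 0.29) and LDHA (-1.65 ± 0.30) also passed, as did PGAM1 (-2.16 ± 0.33) and PKM (-2.04 ± 0.36). The mitochondrial genes PDHA1, MPC1, PDHB and MPC2 were also lower in the Jeko-1 lines, from -1.27 (PDHA1) to -1.90 (MPC2). MPC2 thus lay farther from 0 than LDHA and PFKL.

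Higher in the Jeko-1 lines were PDK3 at 1.64 ± 0.26 (limma, adjusted p = 0.0017) and ENO2, which was at least 2.91-fold higher in the Jeko-1 lines, with both Raji arrays below the floor (limma, adjusted p = 0.00203). The direction of PDK3 depends on the probe set. 3 of its 4 others were higher in the Raji lines, among them 1 with 219 in Jeko-1/R and 235 in Jeko-1, against 1169 in Raji/R and 574 in Raji. The dimmer probe set of MPC1, below the floor on both Raji arrays, also ran against the one used. LDHB passed the adjusted p (0.0168, limma) but not 2-fold, at -0.97 ± 0.26. The other 6 genes did not pass the adjusted p. They were BPGM (0.72 ± 0.26, adjusted p = 0.0532), PFKFB2 (0.57 ± 0.28), PGM2 (0.37 ± 0.25), PDK1 (0.37 ± 0.34), MINPP1 (0.04 ± 0.27) and PDK2 (-0.52 ± 0.25) in limma, and PFKFB2, PDK1 and PDK2 have other probe sets of the opposite direction.

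**Figure D5:**
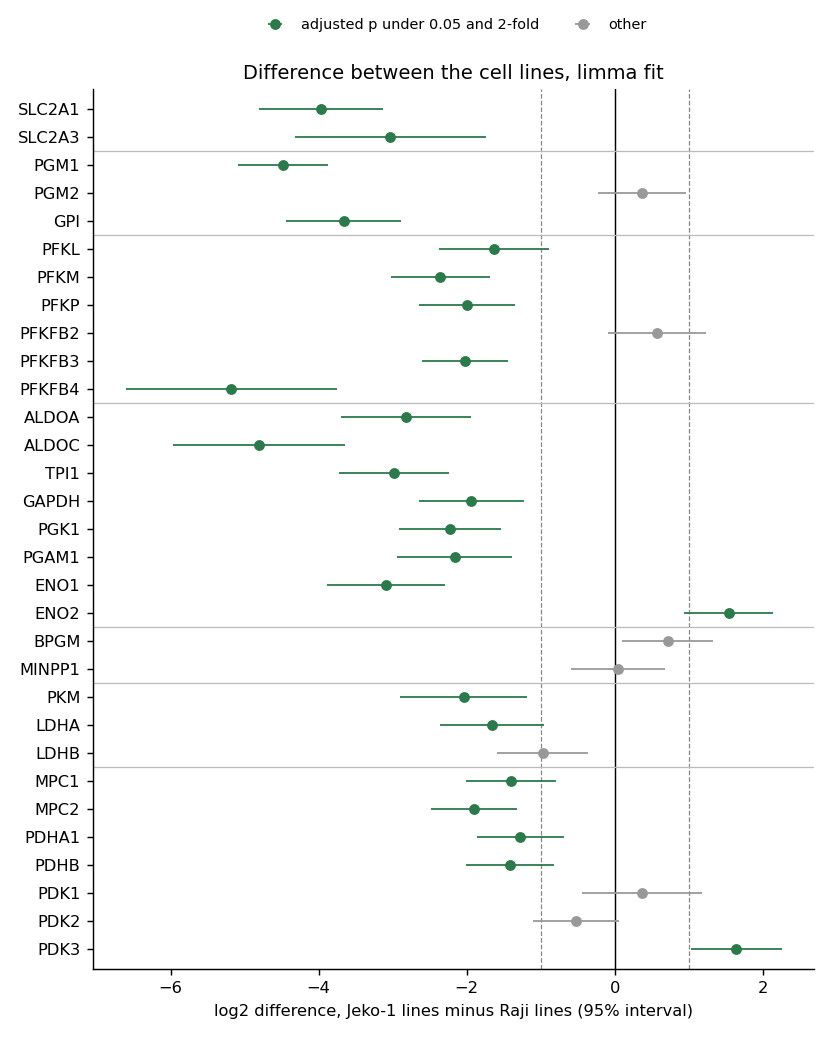
Log2 difference between Jeko-1 and Raji lines (horizontal axis; points are limma estimates over 4 arrays, bars 95% intervals) for 31 genes ordered by pathway step. Green marks an adjusted p under 0.05 with at least 2-fold; 22 green points lie left of 0 and 2 right of it, ENO2 and, with 3 of its 4 other probe sets the other way, PDK3; PFKFB4 and ENO2 rest on arrays raised to the floor.

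For most members the lines stood farther apart among the resistant than among the parental arrays. The median member was 4.43-fold lower in Jeko-1/R than in Raji/R and 3.01-fold lower in Jeko-1 than in Raji, against 1.27-fold and 1.04-fold over all genes. ALDOC was 60.5-fold lower in Jeko-1/R than in Raji/R and 12.9-fold lower in Jeko-1 than in Raji. Of 24 members lower in the Jeko-1 line in both states, the gap was wider among the resistant arrays for 22, against 60.9% of such genes over all. The count restates the ratios above, since such a gap is wider wherever the Jeko-1/R ratio is below the Raji/R ratio. This difference between pairs was not tested, since no array is left over to estimate its error.

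No member passed the resistance term of the same limma fit, which asks for a change shared by both lines. At adjusted p under 0.05 it called 0 of 31 members and 0 of 15575 genes (0.0%), and at an unadjusted p under 0.05 it held 0 members and 324 genes. Since it called no gene at all, it cannot tell members without a shared change from members whose shared change went undetected. Opposite changes in the lines also widen its error, which was 0.60 for PFKFB4 and 0.54 for SLC2A3. Recovery of this term was not simulated. The member estimates lay between -0.63 (PFKFB4) and 0.49 (PFKL).

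Neighbouring pathways were read from further lists. Of the hexokinases, which feed the trunk, 0 of 3 measured genes passed 2-fold for Jeko-1/R over Jeko-1. For Raji/R over Raji 2 of 4 (HK1 and HKDC1) were higher (7.01% of all genes) and 1 (HK2) was lower (2.64%). HKDC1 had 170 in Raji/R and 58.0 in Raji, below the floor, so its log2 ratio was at least 1.13. Other isoforms of the same steps (5 measured for Jeko-1/R over Jeko-1, 12 for Raji/R over Raji) had 0 genes past 2-fold. GAPDHS, PKLR, PDK4 and SLC16A7 were below the floor in Raji. Medians of these isoforms were -0.45 for Jeko-1/R and 0.44 for Raji/R, the latter 0.19 after lowess and 0.23 after quantile normalization. The fructose transporter SLC2A5 was among them, with 439 in Jeko-1/R and 769 in Jeko-1 (-0.81), and 16181 in Raji/R and 12836 in Raji (0.33). The pentose phosphate, citrate cycle, gluconeogenesis and remaining pyruvate dehydrogenase lists had 0 genes past 2-fold in either pair. Their medians lay between -0.15 and 0.03 in Jeko-1/R and between -0.26 and 0.21 in Raji/R. In the line comparison 5 of 8 pentose phosphate genes and 8 of 13 citrate cycle genes were lower in the Jeko-1 lines (limma, adjusted p under 0.05 and 2-fold; 23.8% of all genes), and 2 and 1 were higher (20.0% of all genes).

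Hypoxia-induced genes outside glycolysis were below 0 in 17 of 18 cases in Jeko-1/R, against 49.8% of all genes, with a median of -0.50. At least 2-fold lower were 3 of the 18 (0.595% of all genes), ADM (-1.88), P4HA1 (-1.35) and ANKRD37 (-1.08), and 0 were 2-fold higher (0.38%). In Raji/R 10 of 17 were above 0, close to the 56.1% of all genes, with a median of 0.17 (-0.02 after lowess). At least 2-fold higher were 4 of the 17 (7.01% of all genes), and 0 were 2-fold lower (2.64%). The 4 were HILPDA (1.90), ANKRD37 (1.61), BHLHE40 (1.16) and NDRG1 (1.11). Between the lines this list was split, with 5 of 19 genes lower in the Jeko-1 lines, near the share of all genes (23.8%), and 7 higher (20.0% of all genes). Among the regulators, HIF1A, the oxygen-regulated subunit of the hypoxia factor, had 6934 in Jeko-1/R and 6609 in Jeko-1 (0.07), and 5651 in Raji/R and 7022 in Raji (-0.31). MYC had 20460 in Jeko-1/R and 24145 in Jeko-1 (-0.24), and 6028 in Raji/R and 6681 in Raji (-0.15), and was higher in the Jeko-1 lines by 1.81 on the log2 scale (limma, adjusted p = 0.000835). The gene TXNIP, whose product lowers glucose uptake, had 1045 in Jeko-1/R and 1811 in Jeko-1 (-0.79), and 8858 in Raji/R and 11906 in Raji (-0.43). No regulator passed 2-fold in either pair.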

How the data were processed

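Total RNA of 4 cultures was read on Affymetrix Human Genome U133 Plus 2.0 arrays. Per the submitters' processing notes MAS5 gave the signals, and no version is named there. Values of 54613 probe sets were deposited on a log2 scale. The base was read from the values: trimmed by 2% at either end, the mean of the base-2 signals was 497, 497, 493 and 494 in Jeko-1/R, Jeko-1, Raji/R and Raji. MAS5 scales an array by 1 factor, so shifts that depend on signal level remain. Detection calls and scan dates were not used here, and RNA quality was not checked.

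The platform annotation paired 41091 probe sets with 1 symbol, left 11721 unnamed and gave more than 1 symbol to 1801. Gene IDs of 41037 matched RefSeq (GRCh38.p14), and 0 symbols changed. Of the 31 genes, 19 were read by x_at or s_at probe sets, which may bind other transcripts. Values below the floor (log2 of 6.28) were raised to it, and genes with 1 array of a pair at or above it were described. Line and resistance effects were fitted with limma 3.58.1 (R 4.3.3), two-sided, with Benjamini-Hochberg adjustment over all genes; pairing comes from the cell lines. In simulated data for 15575 genes the line effect was called for 91.0% of genes changed 4-fold, 100.0% changed 16-fold and 0.0911% unchanged. The changed genes were drawn from those well above the floor, and the noise was independent, with the spread that limma fitted. These rates check the fit, do not cover dim members and do not show how often calls on these arrays are right. Alternatives changed the normalization, floor, pseudocount (16), probe set choice and fit terms; lowess used a fraction of 0.3. By rule, members changed 2-fold in a pair or between lines, or against the majority, have their value on every array given; here all 31 do. Genes outside the list of 33 other than markers were named after their values were seen. The labels do not describe separate cultures of 1 group. The genes and lists were chosen with earlier results of these data known. Python 3.11.15, numpy 2.4.6, pandas 2.3.3, statsmodels 0.14.6 and matplotlib 3.10.9 were used.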

Additional observations from a re-analysis of the deposited data

Results flagged for a closer look

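In 2 genes, SLC2A3 and ALDOC, resistant and parental cells of the lines differed by at least 2-fold in opposite directions. The share of all genes that did so was not counted. In Jeko-1/R both lay near 2-fold, at -0.99 each with a pseudocount. After quantile normalization SLC2A3 stood at -0.94 and ALDOC at -1.04 in Jeko-1/R. The log2 ratio of SLC2A3 was 2.55 higher in the Raji pair than in the Jeko-1 pair, and that of ALDOC was 2.23 higher. The median log2 ratio of the glycolysis and pyruvate genes was 0.73 higher in the Raji pair than in the Jeko-1 pair. None of these differences was tested, because each pair has 1 array per state. For SLC2A3 the other probe sets gave the same directions at smaller size in the Raji pair, and ALDOC has 1 probe set.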

How the results depend on the processing

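Medians of the members kept their sign under all 7 alternatives in both pairs, from -0.33 to -0.13 in Jeko-1/R and from 0.12 to 0.44 in Raji/R. For Jeko-1/R the 3 genes lower by 2-fold became 0 with the floor at the 75th percentile (a signal of 367) and 1 with a pseudocount. The 3 genes 2-fold higher in Raji/R became 5 when probe sets of a gene were averaged, and 1 without x_at and s_at sets, where 16 members are left, and without a floor 1 gene, ENO2, was 2-fold lower in place of 0. The 22 members lower in the Jeko-1 lines became 10 without x_at and s_at probe sets, where 17 members are left, and 0 without a floor or filter. The 2 members higher in the Jeko-1 lines became 1 with the higher floor and 0 without a floor. Without a floor the fit called 0 genes of 19775 between the lines, and the cause was not tested. The resistance term called 0 members under every alternative, also with no replicate block (cell line left out of the fit). Leaving out an array would leave a group without samples and was not run. Low signals limit several members in the Jeko-1 lines: the higher floor left PFKFB4, SLC2A3, PFKFB2, ENO2 and PDK2 without a ratio there, and gave -0.32 for ALDOC, -0.22 for SLC2A1 and -0.14 for PKM.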
